A study of Mus musculus and Homo sapiens with 34 samples.

Results

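MRTX1133 and trametinib, inhibitors that act at different steps of one signalling cascade, were compared in 1027B, a line of mouse lung organoids. Trametinib is an allosteric inhibitor of the kinases MEK1 and MEK2, and MRTX1133 acts upstream of them. The comparison rests on 4 of the 34 RNA-seq libraries of the series, 2 with MRTX1133 at 20 nM and 2 with trametinib at 10 nM, both for 48 h. The 2 vehicle libraries of the same line, from the same time, show where each gene stood without inhibitor. The genotype was the same in all groups and included the alleles labelled p53frt, Rosa-FSF-CreERT2, Foxa1flox and Foxa2flox, and all were grown with L-WRN conditioned medium, a source of Wnt3a, R-spondin 3 and noggin. The FSF and frt alleles respond to the recombinase Flp, whereas the floxed Foxa1 and Foxa2 alleles are targets of the tamoxifen-activated CreERT2, and the labels name no step that activated it in these libraries. Foxa1 stood at 64.3 to 116 CPM and Foxa2 at 118 to 171 CPM in the 6 libraries, values that sum over the gene and do not show whether the floxed part was kept. 1027B is a single line, the labels do not say whether replicates were separate cultures, and because the doses differ, the target of a drug and its dose cannot be told apart.

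RAS proteins are small GTPases that, when bound to GTP, recruit and activate RAF kinases, which phosphorylate MEK, which phosphorylates ERK. ERK in turn switches on genes for its own inhibitors, among them dual-specificity phosphatases and Sprouty and Spred proteins, so their transcripts are widely read as a gauge of ERK output. RAS proteins also engage effectors outside the cascade, such as PI3K and RALGDS, which a MEK inhibitor does not bind. In lung adenocarcinoma, ERK signalling is known to influence both growth and the balance between alveolar and gastric gene programmes.

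Levels are given as CPM, the reads of a gene scaled to a library of 1000000 reads after TMM correction for library composition, and a pair of levels stands in the order replicate 1, replicate 2. A difference is on the log2 scale, MRTX1133 minus trametinib, so a positive value means a higher level with MRTX1133. A gene was called when the Benjamini-Hochberg adjusted p of edgeR's quasi-likelihood F-test was under 0.05, in a model with the replicate number as a block. CPM is not divided by transcript length, so levels are compared between libraries and not between genes.

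The 6 libraries held 19692517 to 26064130 counts. All 7 epithelial markers were measured, including Epcam and the keratins Krt8 and Krt18, and their summed level was 7686 to 9536 CPM. No endothelial marker of 7 passed the filter on low counts. Of 9 fibroblast markers 2 passed, with a summed level of 1.26 to 3.57 CPM, and of 9 leukocyte markers 3 passed, with 5.33 to 8.28 CPM. Of 12 markers of ciliated, basal, club and neuroendocrine cells, 5 passed, with 3.39 and 10.4 CPM with vehicle, 285.6 and 155.3 CPM with trametinib and 83.2 and 72.3 CPM with MRTX1133, with the inhibitors mostly from the club cell genes Cyp2f2 and Scgb1a1. Mitochondrially encoded transcripts took 3.31% to 3.49% of counts in the replicate 1 libraries and 1.5% to 2% in the replicate 2 libraries, and this share moved with the replicate number in all groups.

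Of 14555 genes tested, 2050 (14.1%) differed between MRTX1133 and trametinib. Among them, 1128 (7.75% of those tested) were higher with MRTX1133 and 922 (6.33%) were lower. All 2050 had the same sign in both replicate pairs, and the CPM of the inhibitor groups did not overlap for 1873 of them, against 7000 (48.1%) of all tested genes. Most differences were modest. The median absolute difference of the called genes was 0.52, and 346 (2.38% of those tested) differed at least 2-fold, 207 (1.42%) upward and 139 (0.955%) downward. The median over all tested genes was 0.00, with quartiles at -0.20 and 0.22. In the same model 6540 genes (44.9%) differed between trametinib and vehicle and 3515 (24.1%) between MRTX1133 and vehicle, 2143 (14.7%) and 879 (6.04%) of them at least 2-fold, and these contrasts share the vehicle libraries.

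These calls depend on the replicate block. With the block left out, no gene passed the adjusted threshold in edgeR, while 2357 (16.2%) had an unadjusted p under 0.05. Against vehicle 3880 genes were called for trametinib and 913 for MRTX1133 without the block, and the 3515 for MRTX1133 fell to 1370 without MRTX1133 replicate 1 and to 1353 without MRTX1133 replicate 2. Leaving out MRTX1133 replicate 1 left 368 called genes, MRTX1133 replicate 2 left 627 and trametinib replicate 1 left 1081, whereas 3769 and 3932 were called without vehicle replicate 1 or 2. Here and in what follows, libraries were left out singly, and "without either" of a pair means that the statement holds for each left out alone. With 2 libraries a group the p-values measure only the spread between these libraries, which may be technical, and in bulk RNA fewer cells of a type and less RNA per cell cannot be told apart.

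**Figure D1:**
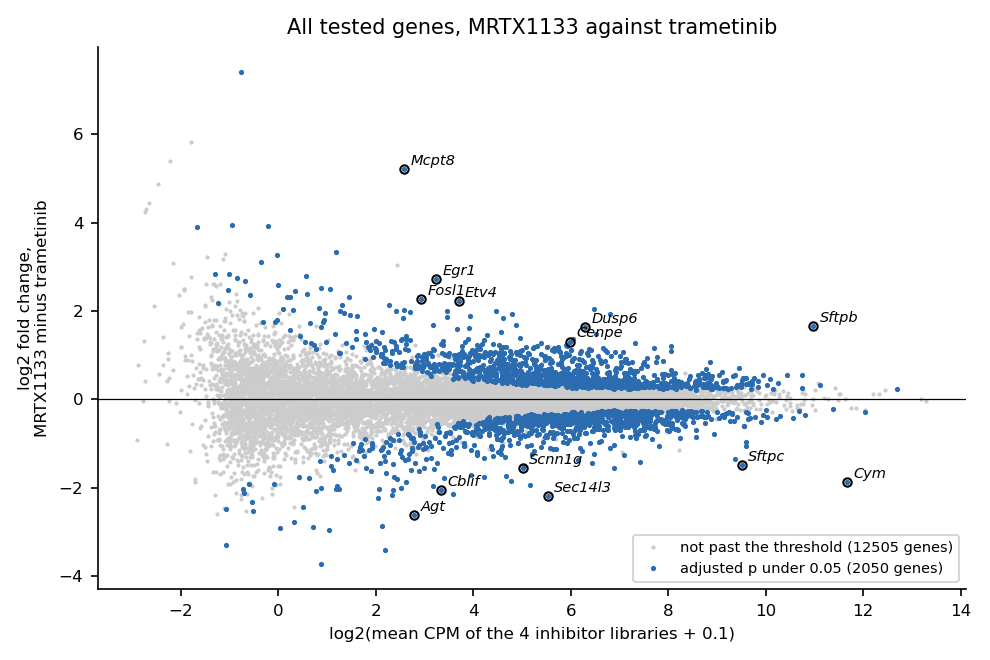
Difference between MRTX1133 and trametinib (log2, vertical axis) against mean level (log2 of mean CPM + 0.1, horizontal axis) for all 14555 tested genes. Blue points are the 2050 genes with an adjusted p under 0.05, grey points the rest, and the points spread on both sides of 0, with Mcpt8, Egr1, Etv4 and Dusp6 on the upper side and Agt, Cym and Scnn1g on the lower side.

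Several negative feedback genes of the ERK cascade were higher with MRTX1133 than with trametinib. Dusp6, the cytoplasmic phosphatase that removes the activating phosphates from ERK, stood at 246 and 296 CPM with vehicle, 30.4 and 47.5 CPM with trametinib and 114 and 123 CPM with MRTX1133. Every trametinib library lay below every MRTX1133 library, and these lay below vehicle. The difference was 1.63 ± 0.12 SE, adjusted p = 0.000616, or 3.09-fold. Dusp4, a nuclear phosphatase of ERK, followed the same order, with 154 and 206 CPM with vehicle, 28.4 and 43.7 CPM with trametinib and 80.9 and 85.3 CPM with MRTX1133 (difference 1.24 ± 0.12 SE, adjusted p = 0.00133). Dusp5, which anchors and dephosphorylates ERK in the nucleus, stood at 12.9 and 19.7 CPM with trametinib and 25.4 and 32 CPM with MRTX1133, against 60.3 and 61.6 CPM with vehicle (difference 0.83 ± 0.14 SE, adjusted p = 0.00873). In the opposite direction, Dusp7, of the same cytoplasmic subclass as Dusp6, was at 19.4 and 22.1 CPM with vehicle, 43 and 39.8 CPM with trametinib and 24.4 and 23.2 CPM with MRTX1133, so that the MRTX1133 libraries lay close to vehicle and well below trametinib (difference -0.80 ± 0.11 SE, adjusted p = 0.00364). The other 5 phosphatases tested, Dusp1, Dusp8, Dusp9, Dusp10 and Dusp16, were not called, with differences from -0.52 for Dusp8 to -0.08 for Dusp1. The list of 9 tested members thus held 3 called higher and 1 lower, where 7.75% and 6.33% of all tested genes were. Its median was -0.08. Without MRTX1133 replicate 1, Dusp5 lost its call, while Dusp4, Dusp6 and Dusp7 were called with each library left out in turn.

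Sprouty and Spred proteins block the path from receptors to RAS and RAF. Spry4 had the largest difference of the 6 tested, at 12.4 and 14.5 CPM with vehicle, 0.668 and 0.513 CPM with trametinib and 4.5 and 2.29 CPM with MRTX1133 (difference 2.51 ± 0.39 SE, adjusted p = 0.00589). Spred2, which brings the RAS inactivator neurofibromin to the membrane, was at 68.1 and 80.2 CPM with vehicle, 17.8 and 29.1 CPM with trametinib and 43.4 and 49.9 CPM with MRTX1133 (difference 1.02 ± 0.13 SE, adjusted p = 0.00293). Spry2 was at 23.7 and 30.3 CPM with trametinib and 37.1 and 40.2 CPM with MRTX1133, with 58.3 and 53.7 CPM in vehicle (difference 0.52 ± 0.12 SE, adjusted p = 0.026). For all 3 the inhibitor groups did not overlap, where 48.1% of all tested genes did not, and vehicle stood highest. Spry1 (0.36 ± 0.11, adjusted p = 0.0585), Spred1 (0.17 ± 0.07, adjusted p = 0.126) and Spred3 (0.12 ± 0.14, adjusted p = 0.628) were not called. Spry2 lost its call without MRTX1133 replicate 1 or 2 or trametinib replicate 1, and Spry4 and Spred2 were called throughout.

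Transcription factors that ERK induces or activates gave 3 of the 10 largest upward differences, those of Egr1, Fosl1 and Etv4, among called genes with a mean of at least 10 CPM in the higher inhibitor group and no overlap of these groups. Spry4, whose means with both drugs were under that level, is not in this ranking. Etv4, an ETS factor of the PEA3 group, was at 51.1 and 56.9 CPM with vehicle, 3.56 and 5.6 CPM with trametinib and 22.8 and 19.6 CPM with MRTX1133 (difference 2.23 ± 0.19 SE, adjusted p = 0.00102, 4.68-fold). Its relative Etv5 was at 30.0 and 45.4 CPM with trametinib and 52.2 and 66.2 CPM with MRTX1133, with 103 and 102 CPM in vehicle (difference 0.66 ± 0.13 SE, adjusted p = 0.0157). Egr1, a zinc finger factor induced within minutes of ERK activation, was at 19.9 and 16.1 CPM with vehicle, 2.09 and 2.75 CPM with trametinib and 19.1 and 13.4 CPM with MRTX1133. With trametinib it was low in both libraries, while the MRTX1133 and vehicle libraries overlapped, and the difference between the drugs was 2.73 ± 0.22 SE, adjusted p = 0.000924, or 6.65-fold. Fosl1, which encodes the AP-1 subunit FRA1, was at 48.5 and 56 CPM with vehicle, 2.0 and 3.17 CPM with trametinib and 14.1 and 10.7 CPM with MRTX1133 (difference 2.28 ± 0.23 SE, adjusted p = 0.00158). Of 13 immediate early factors tested, 5 were called higher and 2 lower, where 7.75% and 6.33% of all tested genes were. The higher ones were Fos, Fosl1, Junb, Egr1 and Maff, and the median of the 13 was 0.37. The 2 lower ones were Jun, at 97.2 and 80.0 CPM with vehicle, 166 and 198 CPM with trametinib and 125 and 119.9 CPM with MRTX1133 (difference -0.57 ± 0.11 SE, adjusted p = 0.015), and Jund, at 328 and 429 CPM with trametinib and 278 and 317 CPM with MRTX1133 (difference -0.34 ± 0.07 SE, adjusted p = 0.019). The call of Jun was lost without either MRTX1133 library, that of Jund also without trametinib replicate 2, and that of Etv5 without trametinib replicate 1 or either MRTX1133 library. Only 2 of the 13 were called without MRTX1133 replicate 1.

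**Figure D2:**
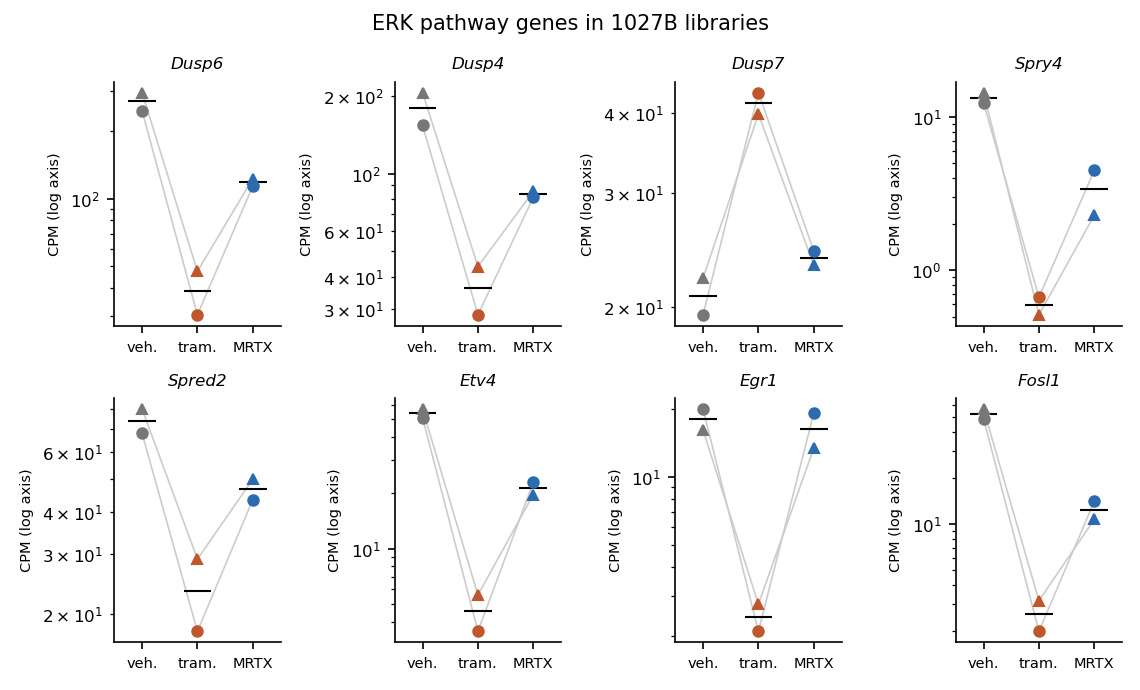
Levels (CPM, log axis) of genes fed by ERK signalling in the 2 vehicle, 2 trametinib and 2 MRTX1133 libraries, with circles for replicate 1, triangles for replicate 2, a bar at the mean of each group and grey lines between libraries of the same replicate number. Trametinib libraries lie lowest in the panels of Dusp6, Spry4, Etv4 and Fosl1, and MRTX1133 libraries lie between them and vehicle.

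Of 14 other ERK targets tested, 7 were called higher with MRTX1133 and 1 lower, where 7.75% and 6.33% of all tested genes were. The higher ones were Phlda1, Epha2, Hbegf, Areg, Ereg, Lif and Emp1, and the median of the 14 was 0.46. Epha2, an ephrin receptor, was at 283 and 262 CPM with vehicle, 53.7 and 72.6 CPM with trametinib and 132 and 116 CPM with MRTX1133 (difference 0.98 ± 0.14 SE, adjusted p = 0.00386). Ereg, which encodes the EGFR ligand epiregulin, was at 32.9 and 30.9 CPM with vehicle, 7.52 and 9.0 CPM with trametinib and 18.9 and 14.3 CPM with MRTX1133 (difference 1.00 ± 0.17 SE, adjusted p = 0.00784). The lower one was Mcl1, an antiapoptotic member of the BCL2 family, at 247 and 234 CPM with vehicle, 384 and 351 CPM with trametinib and 307 and 287 CPM with MRTX1133 (difference -0.31 ± 0.06 SE, adjusted p = 0.0164), highest with trametinib. Without MRTX1133 replicate 1 only 1 of the 14 was called, and Ereg and Mcl1 were not. Mcl1 lost its call also without MRTX1133 replicate 2 or trametinib replicate 1.

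Few genes of the cascade itself were called, a share near that of all genes. Of 19 core members 2 were called higher and none lower, where 14.1% of all tested genes were called and 7.75% were called higher. Map2k1, which encodes MEK1, was at 222 and 248 CPM with vehicle, 109.5 and 142 CPM with trametinib and 144 and 163 CPM with MRTX1133 (difference 0.29 ± 0.08 SE, adjusted p = 0.0413), and Map2k2, which encodes MEK2, at 91.6 and 95.6 CPM with trametinib and 88.6 and 88.7 CPM with MRTX1133 (difference -0.08 ± 0.07 SE, adjusted p = 0.522). Ksr1, a scaffold that holds RAF, MEK and ERK together, was the other called member, at 17.2 and 18.1 CPM with trametinib and 22.8 and 24.6 CPM with MRTX1133, with 39.6 and 49.9 CPM in vehicle (difference 0.42 ± 0.11 SE, adjusted p = 0.0388). Neither call held without MRTX1133 replicate 1, MRTX1133 replicate 2 or trametinib replicate 1, that of Ksr1 also not without trametinib replicate 2, and neither held in DESeq2. Without either vehicle library 4 of the 19 were called, 2 higher and 2 lower.

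Genes of mitosis were higher with MRTX1133. All 24 members tested were called, with differences from 0.72 to 1.38 and a median of 1.10 (1.19 in the replicate 1 pair and 1.05 in the replicate 2 pair). In all 24 the inhibitor groups did not overlap. Of all tested genes, 7.75% were called higher and 48.1% did not overlap. Aurkb, the kinase of the chromosomal passenger complex, was at 41.9 and 65 CPM with vehicle, 11.2 and 23.6 CPM with trametinib and 31.3 and 58.4 CPM with MRTX1133 (difference 1.38 ± 0.12 SE, adjusted p = 0.00105). Cenpe, a kinetochore motor, was at 94.1 and 134 CPM with vehicle, 29 and 43.8 CPM with trametinib and 72.1 and 108 CPM with MRTX1133 (difference 1.31 ± 0.08 SE, adjusted p = 0.000481). In both genes replicate 2 exceeded replicate 1 in all groups. Against vehicle the list's median was -1.37 with trametinib, with 24 members called lower, and -0.29 with MRTX1133, with 11 called lower, where 23.0% and 12.7% of all genes were called lower in these contrasts. With each library left out in turn, 23 or 24 members were called, and without the block 23 of the 24 had an unadjusted p under 0.05.

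DNA replication genes stood higher too, by less. Of 26 S phase genes tested, 20 were called higher and none lower, where 7.75% and 6.33% of all tested genes were. All 26 had a positive sign, with a median of 0.53. Cdc6, which loads the replicative helicase, was at 27.6 and 26.4 CPM with vehicle, 11.7 and 15.3 CPM with trametinib and 27.2 and 28.4 CPM with MRTX1133, so the MRTX1133 libraries lay at the level of vehicle (difference 1.05 ± 0.13 SE, adjusted p = 0.003). Uhrf1, a cofactor of maintenance DNA methylation, was at 116 and 117 CPM with vehicle, 34.6 and 61.4 CPM with trametinib and 85 and 109.5 CPM with MRTX1133 (difference 1.04 ± 0.16 SE, adjusted p = 0.00577). Against vehicle, 23.0% of all tested genes were called lower with trametinib and 12.7% with MRTX1133. The list's median there was -0.61 with trametinib, with 23 members called lower, and -0.05 with MRTX1133, with 1 called lower. With single libraries left out the count was 7 (MRTX1133 replicate 1), 5 (MRTX1133 replicate 2) and 8 (trametinib replicate 1), and without the block 22 had an unadjusted p under 0.05. Of 13 G1 cyclins and CDK inhibitors, 3 were called, where 14.1% of all tested genes were, namely Cdkn2c (0.71 ± 0.18, adjusted p = 0.0352) and Cdkn1b (0.29 ± 0.07, adjusted p = 0.0254) higher and Cdkn2b (-0.37 ± 0.08, adjusted p = 0.0224) lower, all inhibitors of cyclin-dependent kinases. For Cdkn1b the groups overlapped. None of the 3 calls held without MRTX1133 replicate 1, MRTX1133 replicate 2 or trametinib replicate 1, and those of Cdkn1b and Cdkn2b not without trametinib replicate 2 either, while 7 of the 13 were called without either vehicle library.

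The mitosis list was read against promoter sequence because its members moved together. Promoters of G2/M genes are known for the cell cycle genes homology region, CHR for short, whose letters were taken as TTTGAA. They are also known for boxes bound by NF-Y, taken as CCAAT. RefSeq promoter windows of 300 bases, from 250 before to 50 after the start site in build GRCm38.p6, were at hand for 19 of the 24 mitosis genes. On either strand 14 of the 19 genes (73.7%) held the CHR and 16 (84.2%) the NF-Y box, against 17.9% and 37.4% of all 32851 promoters. Among 20 S phase genes the counts were 3 (15.0%) and 13 (65.0%), and the E2F motif TTTCCCGC was in 3 (15.0%), against 1.07% of all promoters. Here and below a listed gene counts once if any of its windows matches, whereas all promoters are counted window by window. A gene with several windows would have more chances of a match, so these percentages are not like for like. The 150 bases before the start are shown for 3 mitosis genes that carry both motifs, Cdk1 at chr10:69352913-69353062, Top2a at chr11:99024190-99024339 and Cdc20 at chr4:118437344-118437493, all on the minus strand and printed 5′ to 3′ along the gene, with both motifs, on either strand, in capitals:

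Cdk1: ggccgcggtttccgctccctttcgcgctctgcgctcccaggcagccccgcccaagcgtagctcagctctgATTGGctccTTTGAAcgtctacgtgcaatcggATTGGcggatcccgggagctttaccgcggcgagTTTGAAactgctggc

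Top2a: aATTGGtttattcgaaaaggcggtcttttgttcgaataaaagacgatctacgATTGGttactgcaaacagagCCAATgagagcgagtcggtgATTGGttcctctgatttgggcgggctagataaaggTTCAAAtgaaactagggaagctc

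Cdc20: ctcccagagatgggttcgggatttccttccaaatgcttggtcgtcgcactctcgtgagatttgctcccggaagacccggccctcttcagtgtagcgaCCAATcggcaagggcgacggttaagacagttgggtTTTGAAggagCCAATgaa

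Cdk1, the kinase that drives entry into mitosis, holds 2 CHR and 2 NF-Y box matches in this window. Top2a, which disentangles sister chromosomes, holds 1 and 4, and Cdc20, an activator of the anaphase-promoting complex, holds 1 and 2. Their differences between the drugs were 1.14 for Cdk1, 1.17 for Top2a and 0.97 for Cdc20. A match is only a run of letters, not a bound site. The same search over 31 ERK target genes with a promoter window found the AP-1 motif TGANTCA in 3 (9.68%), the ETS motif CCGGAAGT in 0 and the CArG box in 1 (3.23%), against 7.81%, 3.89% and 1.63% of all promoters.

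**Figure D3:**
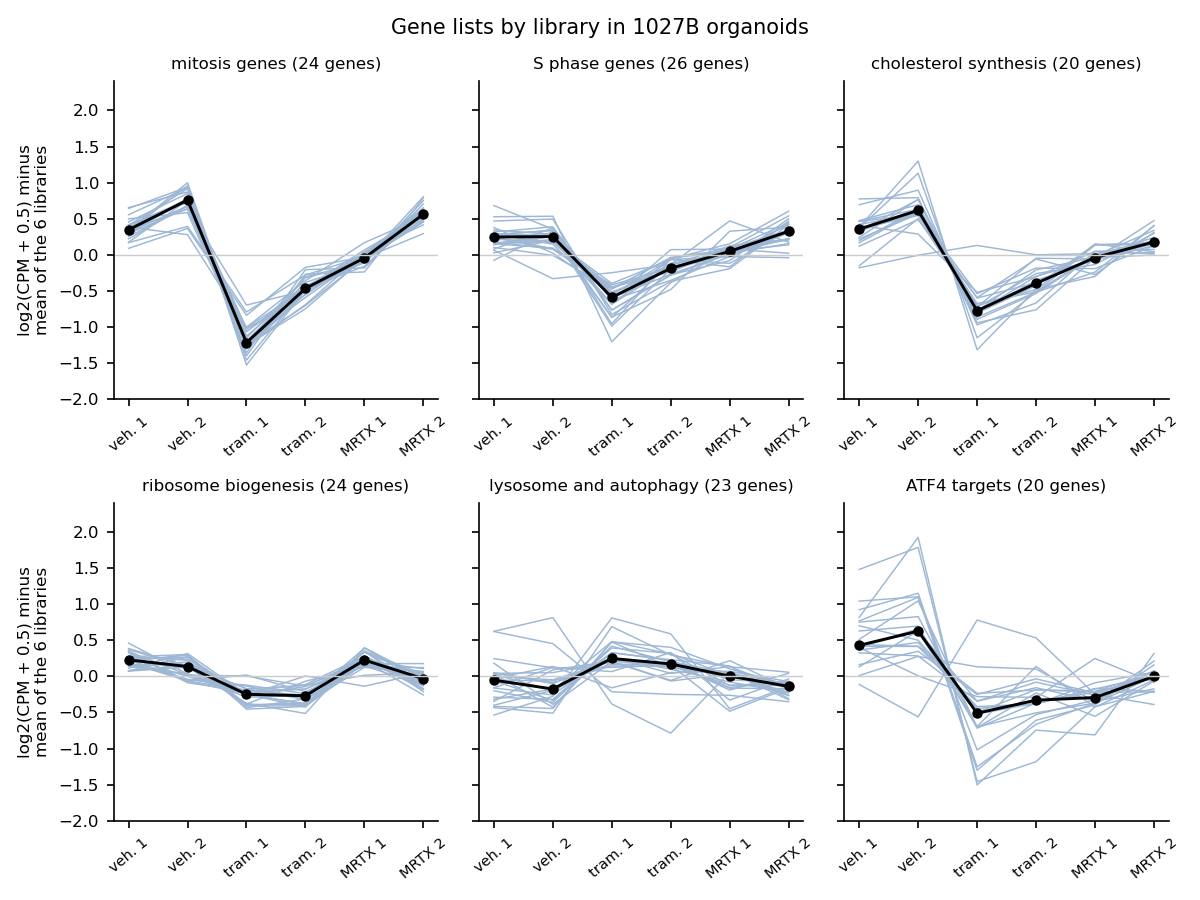
Level of each member of several gene lists in each of the 6 libraries, as log2(CPM + 0.5) minus the gene's mean over the 6, in thin lines, with the list's median in black. The lines join libraries for legibility and the libraries have no order. The medians of the mitosis, S phase and cholesterol synthesis lists are lowest in the trametinib libraries, and that of the lysosome and autophagy list is highest there.

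Enzymes of cholesterol synthesis were higher with MRTX1133. Of 20 members tested, 19 were called higher and none lower, where 7.75% and 6.33% of all tested genes were, with a median of 0.64. Insig1, which retains the SREBP processing complex in the endoplasmic reticulum, was at 349 and 658 CPM with vehicle, 107 and 192 CPM with trametinib and 217 and 354 CPM with MRTX1133 (difference 0.95 ± 0.07 SE, adjusted p = 0.00074). Lss, the enzyme that closes the sterol ring, was at 219 and 372 CPM with vehicle, 76.2 and 118 CPM with trametinib and 144 and 224 CPM with MRTX1133 (difference 0.92 ± 0.07 SE, adjusted p = 0.00074). In both genes the replicate 2 libraries exceeded those of replicate 1 and the inhibitor groups did not overlap. Against vehicle the list's median was -1.07 with trametinib and -0.40 with MRTX1133. Without MRTX1133 replicate 1, 10 of the 20 were called, and without the block 15 had an unadjusted p under 0.05. CCAAT lay in promoters of 12 of 13 genes of the list (92.3%), against 37.4% of all promoters. The sterol response element TCACNCCAC lay in those of 1 of 13 (7.69%), against 1.24% of all promoters. That one is Hmgcs1, which makes the precursor of mevalonate. Unlike for Cdk1, Top2a and Cdc20, the bases after its listed start were not found in its annotated transcripts. Its start site and direction therefore lack this check. The 150 bases before the listed start, at chr13:119690201-119690350 on the plus strand, are shown with the element and the reverse complement of CCAAT in capitals:

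Hmgcs1: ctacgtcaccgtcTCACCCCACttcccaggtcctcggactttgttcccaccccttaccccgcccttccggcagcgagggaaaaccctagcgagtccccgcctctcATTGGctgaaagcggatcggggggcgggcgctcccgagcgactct

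Ribosome biogenesis genes shared one sign. All 24 tested members had a positive difference, 10 of them called, where 7.75% of all tested genes were called higher. The median was 0.37, with 0.53 in the replicate 1 pair and 0.19 in the replicate 2 pair. Nop56, a core protein of the small nucleolar ribonucleoproteins that methylate ribosomal RNA, was at 205 and 176 CPM with vehicle, 123 and 111 CPM with trametinib and 209.7 and 156 CPM with MRTX1133 (difference 0.63 ± 0.08 SE, adjusted p = 0.00315). Npm1, an abundant nucleolar chaperone, was at 687 and 724 CPM with vehicle, 431 and 442 CPM with trametinib and 668 and 667 CPM with MRTX1133 (difference 0.61 ± 0.06 SE, adjusted p = 0.00162), so MRTX1133 libraries lay near vehicle. Without the block 10 had an unadjusted p under 0.05. The count of 10 depended on single libraries: it was 1 without MRTX1133 replicate 1, where Nop56 lost its call, 5 without MRTX1133 replicate 2, 6 without trametinib replicate 1, and 16 and 17 without vehicle replicate 1 and 2. Ribosomal protein genes took 4.22% and 4.57% of counts with vehicle, 3.07% and 3.41% with trametinib and 3.73% and 4.25% with MRTX1133.

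Targets of ATF4, the factor of the amino acid response, gave 10 higher and 2 lower calls among 20, with a median of 0.31. Of all tested genes, 7.75% were called higher and 6.33% lower. Slc7a11, the cystine transporter subunit, was at 281 and 347 CPM with vehicle, 36.2 and 43.9 CPM with trametinib and 74.8 and 86.7 CPM with MRTX1133 (difference 1.01 ± 0.07 SE, adjusted p = 0.000616). Aldh1l2, a mitochondrial enzyme of folate metabolism, was at 10.2 and 17.7 CPM with trametinib and 16.9 and 37.4 CPM with MRTX1133 (difference 0.91 ± 0.12 SE, adjusted p = 0.00291), and here the groups overlapped as replicate 2 exceeded replicate 1. The lower ones were Nupr1, a small stress-induced chromatin protein, at 47.1 and 34.4 CPM with vehicle, 87.8 and 73.9 CPM with trametinib and 42.8 and 38.8 CPM with MRTX1133 (difference -0.98 ± 0.10 SE, adjusted p = 0.00133), and Atf5 at 55.6 and 54.5 CPM with trametinib and 39.7 and 45 CPM with MRTX1133 (difference -0.38 ± 0.10 SE, adjusted p = 0.0352). Without the block 8 of the 20 were higher and 2 lower at an unadjusted p under 0.05. Without either MRTX1133 library 5 of the 20 were called, and Atf5 was lost in both cases and without trametinib replicate 1. Of 21 genes of glycolysis and hypoxia, 6 were called higher and none lower, where 7.75% of all tested genes were called higher, with a median of 0.19. Hk2, a hexokinase, was at 326 and 496 CPM with vehicle, 162 and 228 CPM with trametinib and 237 and 350 CPM with MRTX1133 (difference 0.58 ± 0.07 SE, adjusted p = 0.00204), and Ndrg1, a hypoxia-induced gene, at 372 and 612 CPM with trametinib and 486 and 855 CPM with MRTX1133 (difference 0.43 ± 0.06 SE, adjusted p = 0.0047), where the groups overlapped. Without the block none of the 21 had an unadjusted p under 0.05. The count of 6 was 2 without MRTX1133 replicate 1, 1 without MRTX1133 replicate 2 and 11 without either vehicle library, and Ndrg1 was lost without either MRTX1133 library.

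Lysosome and autophagy genes went the other way. Of 23 tested, 12 were called lower with MRTX1133 and none higher, where 6.33% and 7.75% of all tested genes were. A negative sign was seen in 21 of them, and the median was -0.34. Members called lower include the lysosomal membrane proteins Lamp1 and Lamp2, the cathepsins Ctsb and Ctsd, and Sqstm1, the receptor that carries ubiquitinated cargo into autophagosomes. Ulk1, the kinase that starts autophagosome formation, was at 41.4 and 39.2 CPM with vehicle, 90.6 and 68.9 CPM with trametinib and 61.5 and 49.5 CPM with MRTX1133 (difference -0.52 ± 0.10 SE, adjusted p = 0.0114). Hexa, a lysosomal hexosaminidase subunit, was at 4.31 and 5.25 CPM with vehicle, 11.7 and 9.98 CPM with trametinib and 4.61 and 5.83 CPM with MRTX1133 (difference -1.07 ± 0.21 SE, adjusted p = 0.0134), with MRTX1133 libraries near vehicle. No member was called without MRTX1133 replicate 1 or without MRTX1133 replicate 2, and Ulk1 and Hexa were not without trametinib replicate 1, although the median stayed between -0.36 and -0.32 with each library left out in turn. Without the block 12 members were lower and 1 higher at an unadjusted p under 0.05. The CLEAR element GTCACGTG lay in promoters of 4 of 18 genes of the list (22.2%) and in 2.25% of all promoters. It also lay in those of 3 of 20 genes of the S phase list (15.0%) and 2 of 13 of the cholesterol synthesis list (15.4%), whose called members were higher with MRTX1133.

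**Figure D4:**
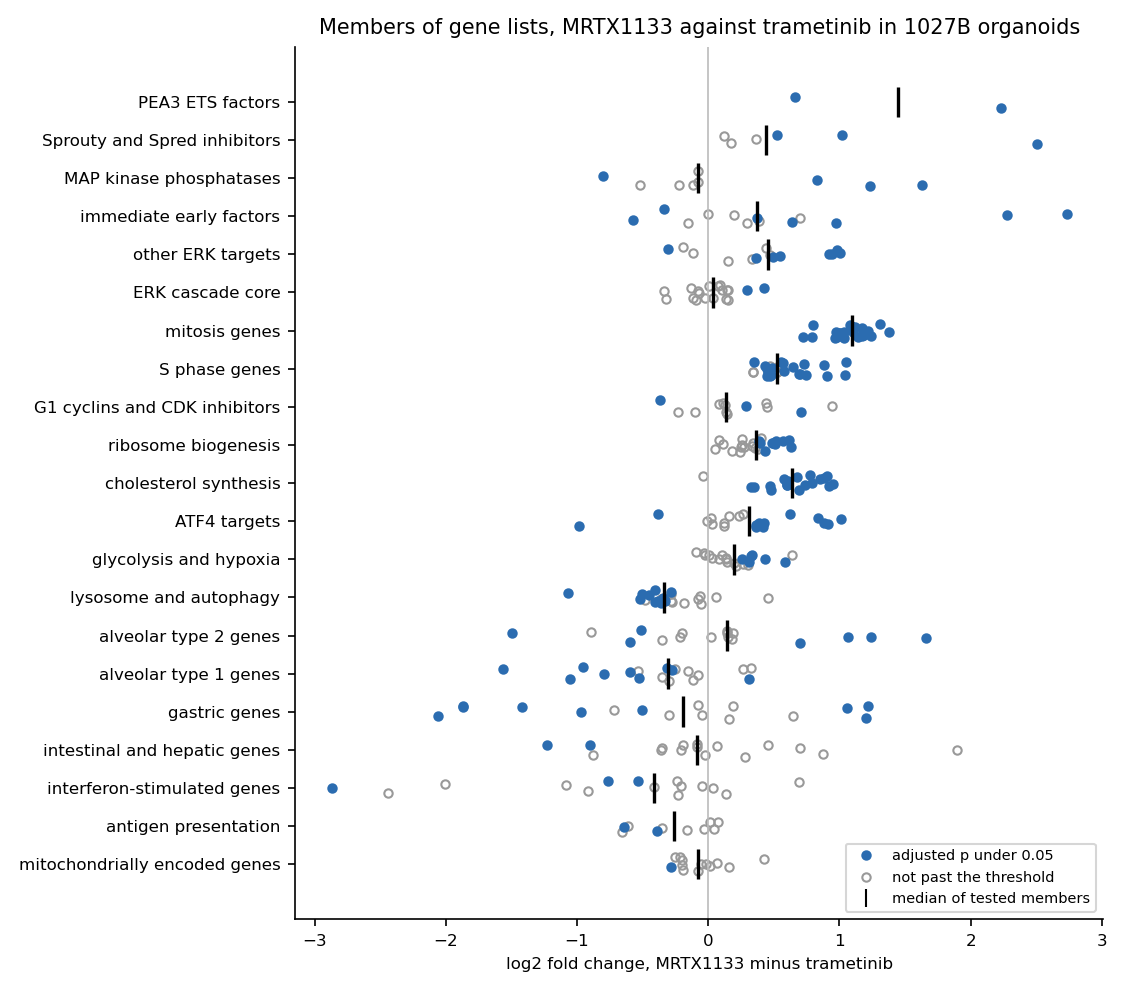
Difference between MRTX1133 and trametinib (log2, horizontal axis) for every tested member of the gene lists named at the left, with random vertical jitter. Each point is a gene, filled in blue where its adjusted p was under 0.05 and open where not, and a vertical tick marks the median of the tested members. Mitosis genes lie between 0.72 and 1.38 and the median of lysosome and autophagy genes lies at -0.34.

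Among lineage transcription factors, 3 of 17 were called higher and 1 lower, where 14.1% of all tested genes were called. Id2, an inhibitor of basic helix-loop-helix factors, was at 329 and 384 CPM with vehicle, 38.3 and 61.6 CPM with trametinib and 76.2 and 110.3 CPM with MRTX1133 (difference 0.91 ± 0.11 SE, adjusted p = 0.0024). Sox9, a factor of distal lung progenitors, was at 106 and 82.5 CPM with vehicle, 26 and 23.3 CPM with trametinib and 48.8 and 36.2 CPM with MRTX1133 (difference 0.77 ± 0.10 SE, adjusted p = 0.00275). The third was Cebpa. Cebpb, an inducible relative of Cebpa, was the lower one, at 33.7 and 43.5 CPM with vehicle, 94.6 and 80.5 CPM with trametinib and 55.7 and 59.4 CPM with MRTX1133 (difference -0.61 ± 0.13 SE, adjusted p = 0.0186), and lost its call without MRTX1133 replicate 1 or 2 or trametinib replicate 1. Hnf4a, which drives gastrointestinal and hepatic genes, was at 446 and 471 CPM with vehicle, 254 and 200.4 CPM with trametinib and 298 and 242 CPM with MRTX1133, and the inhibitor groups overlapped (difference 0.25 ± 0.10 SE, adjusted p = 0.147). Nkx2-1, the lung lineage factor, was at 312 and 316 CPM with vehicle, 413 and 431 CPM with trametinib and 375 and 384 CPM with MRTX1133 (difference -0.15 ± 0.06 SE, adjusted p = 0.147). The count of 4 was 2 without MRTX1133 replicate 1, MRTX1133 replicate 2 or trametinib replicate 1, and 8 without either vehicle library.

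Alveolar type 2 genes split in direction, with 4 of 17 called higher and 3 lower, where 7.75% and 6.33% of all tested genes were. Sftpb, which encodes surfactant protein B, was at 5948 and 9849 CPM with vehicle, 649 and 1333 CPM with trametinib and 2311 and 3767 CPM with MRTX1133. Its levels were lowest in both trametinib libraries and highest in vehicle, and the difference between drugs was 1.66 ± 0.09 SE, adjusted p = 0.000481, or 3.17-fold. Sftpa1, which encodes surfactant protein A, was at 59.7 and 106 CPM with vehicle, 2.67 and 9.56 CPM with trametinib and 6.95 and 22.1 CPM with MRTX1133 (difference 1.24 ± 0.24 SE, adjusted p = 0.0136), and the drug groups overlapped as replicate 2 exceeded replicate 1. Sftpc, which encodes surfactant protein C, ran the opposite way, at 26.8 and 104 CPM with vehicle, 1137 and 978 CPM with trametinib and 333 and 459 CPM with MRTX1133 (difference -1.49 ± 0.38 SE, adjusted p = 0.0366). Its difference ran from -2.07 to -0.72 with each library left out in turn. Lpcat1, an enzyme of surfactant phospholipid synthesis, was lower with MRTX1133 too, at 257 and 182 CPM with trametinib and 142 and 147 CPM with MRTX1133 (difference -0.59 ± 0.12 SE, adjusted p = 0.0179). Sftpb was called with each library left out in turn, whereas Sftpc lost its call in DESeq2 and without trametinib replicate 1, MRTX1133 replicate 1 or MRTX1133 replicate 2. Sftpa1 lost its call without MRTX1133 replicate 2, and Lpcat1 without trametinib replicate 1 or MRTX1133 replicate 1. Leaving out either MRTX1133 library left 4 called members of this list, and 11 were called without trametinib replicate 2 or vehicle replicate 2.

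Of the alveolar type 1 genes more were called lower than higher with MRTX1133. Of 18 tested, 8 were called lower, 1 higher and 9 neither, where 6.33% and 7.75% of all tested genes were called lower and higher. A negative sign was seen in 15 of the 18, and the median was -0.31. Scnn1g, the gamma subunit of the epithelial sodium channel, was at 0.775 and 1.35 CPM with vehicle, 49.2 and 46.8 CPM with trametinib and 16.8 and 15.8 CPM with MRTX1133 (difference -1.56 ± 0.14 SE, adjusted p = 0.00109). Ager, the receptor that marks type 1 cells, was at 25.1 and 116 CPM with vehicle, 770 and 1286 CPM with trametinib and 355 and 661 CPM with MRTX1133 (difference -1.05 ± 0.27 SE, adjusted p = 0.0386). Both were lowest in vehicle and highest with trametinib. Tspan8, a tetraspanin, was the higher one, at 594 and 551 CPM with vehicle, 286 and 303 CPM with trametinib and 374 and 355 CPM with MRTX1133 (difference 0.31 ± 0.07 SE, adjusted p = 0.0259). Against vehicle the list's median was 0.99 with trametinib and 0.71 with MRTX1133. The count of 9 was 2 without MRTX1133 replicate 1, 3 without MRTX1133 replicate 2, 5 without trametinib replicate 1 and 14 without either vehicle library. Ager and Tspan8 lost their calls without each of the 3 inhibitor libraries just named, and Ager also in DESeq2.

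Gastric genes went both ways. Of 16 tested, 3 were called higher and 6 lower, where 7.75% and 6.33% of all tested genes were, with a median of -0.19. Tff1, a trefoil peptide of surface mucous cells, was at 2790 and 1890 CPM with vehicle, 120.3 and 199 CPM with trametinib and 312 and 426 CPM with MRTX1133 (difference 1.22 ± 0.25 SE, adjusted p = 0.0167), and Gkn2, a gastrokine of the same cells, at 806 and 617 CPM with vehicle, 15.1 and 33.2 CPM with trametinib and 45.3 and 64.3 CPM with MRTX1133 (difference 1.20 ± 0.29 SE, adjusted p = 0.0287). Both were highest in vehicle and lowest with trametinib. Cym, which encodes the protease chymosin, was at 22.6 and 13.4 CPM with vehicle, 7158 and 2960 CPM with trametinib and 2116 and 743 CPM with MRTX1133 (difference -1.87 ± 0.14 SE, adjusted p = 0.000616), and Cblif, the gastric intrinsic factor, at 0.339 and 0.163 CPM with vehicle, 17.9 and 14.5 CPM with trametinib and 4.24 and 3.54 CPM with MRTX1133 (difference -2.06 ± 0.19 SE, adjusted p = 0.0011). For these genes vehicle was lowest and trametinib highest. Tff1 lost its call without MRTX1133 replicate 2, Gkn2 without trametinib replicate 1 or either MRTX1133 library, and both lost it in DESeq2. The count of 9 was 5 without MRTX1133 replicate 1. Of 16 intestinal and hepatic genes, 2 were called lower and none higher, where 14.1% of all tested genes were called and 6.33% called lower, among them Guca2a, the hormone guanylin, at 10.0 and 16.8 CPM with vehicle, 48.5 and 54.5 CPM with trametinib and 17.5 and 27.6 CPM with MRTX1133 (difference -1.23 ± 0.14 SE, adjusted p = 0.0022). The count of 2 was 1 without trametinib replicate 1 or either MRTX1133 library, 3 without trametinib replicate 2, and 5 and 6 without vehicle replicate 1 and 2.

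Of the 5 measured markers of ciliated, basal, club and neuroendocrine cells, 2 were called lower with MRTX1133, both genes of club cells, and none higher. Of all tested genes, 14.1% were called, 6.33% lower and 7.75% higher. Scgb1a1, the secretoglobin of club cells, was at 0.726 and 5.74 CPM with vehicle, 29.7 and 43.4 CPM with trametinib and 4.64 and 24.1 CPM with MRTX1133 (difference -1.72 ± 0.41 SE, adjusted p = 0.0275). With each library left out in turn, this difference ran from -2.77 to -0.79. Cyp2f2, a cytochrome of the same cells, was at 0.339 and 1.62 CPM with vehicle, 252 and 106 CPM with trametinib and 74.5 and 42.2 CPM with MRTX1133 (difference -1.56 ± 0.26 SE, adjusted p = 0.00755). Both lost their calls in DESeq2 and without MRTX1133 replicate 1. Scgb3a2, another secretoglobin of club cells, was not called and had the opposite sign, at 0 and 0.433 CPM with vehicle, 0.623 and 2.42 CPM with trametinib and 1.6 and 3.44 CPM with MRTX1133 (difference 0.88 ± 0.47 SE, adjusted p = 0.265), with overlapping groups. Epcam, an epithelial adhesion protein, was at 464 and 451 CPM with vehicle, 366 and 319.7 CPM with trametinib and 477 and 392 CPM with MRTX1133 (difference 0.34 ± 0.08 SE, adjusted p = 0.0221), the only called member of 7 epithelial markers, and lost its call without either MRTX1133 library. Without either vehicle library 3 of the 7 were called.

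**Figure D5:**
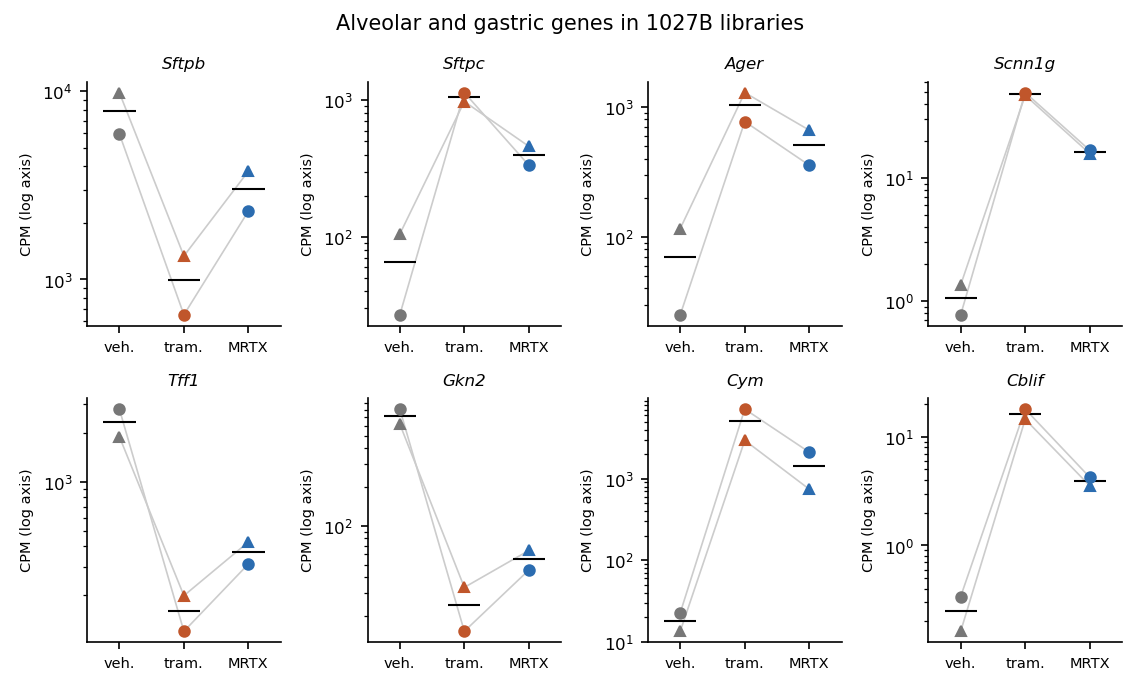
Levels (CPM, log axis) of alveolar and gastric genes in the 2 vehicle, 2 trametinib and 2 MRTX1133 libraries, with circles for replicate 1, triangles for replicate 2, a bar at the mean of each group and grey lines between libraries of the same replicate number. Sftpb and Tff1 are lowest with trametinib, while Sftpc, Ager and Cym are highest with trametinib, and MRTX1133 libraries lie between trametinib and vehicle in these panels.

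In 3 lists of signalling outside the cascade the share of called members was near the 14.1% of all tested genes. Receptors and ligands upstream of RAS gave 3 calls among 18 tested. Fgf1, a fibroblast growth factor, was at 62.4 and 53.5 CPM with vehicle, 191 and 149 CPM with trametinib and 103 and 87.7 CPM with MRTX1133 (difference -0.83 ± 0.07 SE, adjusted p = 0.00105). Fgfr3, one of its receptors, was at 10.4 and 14.1 CPM with vehicle, 73.2 and 63.1 CPM with trametinib and 45.7 and 42.5 CPM with MRTX1133 (difference -0.63 ± 0.14 SE, adjusted p = 0.0208), and lost its call without trametinib replicate 1 or either MRTX1133 library. Fgfr4 was called higher. In the PI3K, AKT and FoxO list 1 of 23 was called higher and 3 lower. Irs2, an adaptor from the insulin receptor to PI3K, was at 66.2 and 73.6 CPM with vehicle, 25.7 and 33.8 CPM with trametinib and 46 and 49.2 CPM with MRTX1133 (difference 0.69 ± 0.10 SE, adjusted p = 0.00446). Pik3r3, a regulatory subunit of PI3K, was at 17.5 and 15 CPM with vehicle, 67.9 and 50.8 CPM with trametinib and 42.6 and 28.3 CPM with MRTX1133 (difference -0.75 ± 0.11 SE, adjusted p = 0.00392), and Sesn3, a sestrin induced by FoxO factors, at 46.9 and 45 CPM with vehicle, 139.8 and 123 CPM with trametinib and 92 and 75.2 CPM with MRTX1133 (difference -0.65 ± 0.08 SE, adjusted p = 0.00259). Of 9 genes of the RAL arm, which RAS proteins reach without MEK, 1 was called, Ralb, at 138 and 163 CPM with trametinib and 115 and 126 CPM with MRTX1133 (difference -0.31 ± 0.08 SE, adjusted p = 0.0381). Ralb was not called when any inhibitor library was left out, and Irs2 not without MRTX1133 replicate 1. Without either vehicle library 6, 10 and 4 members of these 3 lists were called. It was 1, 2 and 0 without MRTX1133 replicate 1, 1, 3 and 0 without MRTX1133 replicate 2, 1, 5 and 0 without trametinib replicate 1, and 5, 5 and 1 without trametinib replicate 2.

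In the BCL2 family 1 of 15 members was called higher and 4 lower, where 7.75% and 6.33% of all tested genes were. Bik, a BH3-only promoter of cell death, was at 1.02 and 1.41 CPM with vehicle, 13.2 and 8.77 CPM with trametinib and 3.83 and 3.29 CPM with MRTX1133 (difference -1.61 ± 0.25 SE, adjusted p = 0.00562). Bmf, another BH3-only protein, was at 40.1 and 61.9 CPM with vehicle, 190.2 and 159 CPM with trametinib and 111 and 118 CPM with MRTX1133 (difference -0.62 ± 0.17 SE, adjusted p = 0.0438). Both were highest with trametinib. Bok, an effector of the family, was at 124 and 136 CPM with vehicle, 28.6 and 57.7 CPM with trametinib and 68.9 and 69.3 CPM with MRTX1133 (difference 0.73 ± 0.21 SE, adjusted p = 0.0499), at the edge of the threshold, and lost its call under RLE or upper-quartile scaling, with the filter that asked each library for 10 counts, in DESeq2, and without trametinib replicate 1 or MRTX1133 replicate 1. Bik was not called without MRTX1133 replicate 1, and Bmf not in DESeq2 or without trametinib replicate 1 or either MRTX1133 library. No member of the family was called without MRTX1133 replicate 1, 2 were without trametinib replicate 1, 3 without MRTX1133 replicate 2, and 8 and 9 without vehicle replicate 1 and 2.

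Called genes of interferon response and antigen presentation were all lower with MRTX1133, and those of the chemokine and cytokine list went both ways, where 14.1% of all tested genes were called and 6.33% called lower. Of 15 interferon-stimulated genes, 3 were called lower with MRTX1133 and none higher, with a median of -0.41. Ifit3, an antiviral effector with a close copy in the mouse genome, was at 0.726 and 0.325 CPM with vehicle, 9.75 and 5.22 CPM with trametinib and 1.11 and 0.897 CPM with MRTX1133 (difference -2.87 ± 0.30 SE, adjusted p = 0.00162), and Ifit2 at 3.24 and 5.14 CPM with vehicle, 53.1 and 36 CPM with trametinib and 27.1 and 25.1 CPM with MRTX1133 (difference -0.76 ± 0.20 SE, adjusted p = 0.0385). Of 10 genes of antigen presentation 2 were called lower and none higher. B2m, the light chain of MHC class I, was at 10.7 and 6.12 CPM with vehicle, 27.5 and 20.2 CPM with trametinib and 18.8 and 12.2 CPM with MRTX1133 (difference -0.64 ± 0.13 SE, adjusted p = 0.0167), and Tapbp, which loads peptides onto class I, at 198 and 152 CPM with trametinib and 148 and 119 CPM with MRTX1133 (difference -0.39 ± 0.08 SE, adjusted p = 0.0184). Chemokines and cytokines had 5 of 15 called higher and 2 lower, with a median of 0.58 that was 0.86 in the replicate 1 pair and 0.18 in the replicate 2 pair. Il33, an alarmin of alveolar type 2 cells, was at 556 and 491 CPM with vehicle, 94.6 and 80.1 CPM with trametinib and 177 and 188 CPM with MRTX1133 (difference 1.07 ± 0.09 SE, adjusted p = 0.000989). Cxcl1, a neutrophil attractant, was at 17.5 and 6.17 CPM with vehicle, 6.81 and 3.96 CPM with trametinib and 16.6 and 6.73 CPM with MRTX1133 (difference 1.05 ± 0.20 SE, adjusted p = 0.0132), with overlapping groups. In the other direction Cx3cl1, a membrane-bound chemokine, was at 13.6 and 18.5 CPM with vehicle, 26.6 and 27 CPM with trametinib and 18.5 and 14.6 CPM with MRTX1133 (difference -0.69 ± 0.17 SE, adjusted p = 0.0352), and Cxcl16, another chemokine made as a membrane protein, at 28.9 and 16.7 CPM with vehicle, 73.4 and 51.4 CPM with trametinib and 57.3 and 33.7 CPM with MRTX1133 (difference -0.48 ± 0.10 SE, adjusted p = 0.0164), where the inhibitor groups overlapped. Neither was called without MRTX1133 replicate 2 or trametinib replicate 2, nor Cx3cl1 without trametinib replicate 1 and Cxcl16 without MRTX1133 replicate 1. Of the other genes here Ifit3 and Il33 were called with each library left out, and Ifit2, B2m, Tapbp and Cxcl1 were not called without either MRTX1133 library. Ifit2, Tapbp and Cxcl1 were not called without trametinib replicate 1, nor B2m without trametinib replicate 2. Of the chemokines and cytokines 2, 3 and 3 were called without MRTX1133 replicate 1, MRTX1133 replicate 2 and trametinib replicate 1, and of the interferon-stimulated genes 1 without either MRTX1133 library, 5 without trametinib replicate 1 and 7 without either vehicle library. Without trametinib replicate 2, 1 interferon-stimulated gene was called higher and 2 lower. Of the antigen presentation genes none was called without either MRTX1133 library, 1 without either trametinib library and 3 without either vehicle library. The 3 measured leukocyte markers were low in all 6 libraries, with Ptprc at 0.19 to 1.79 CPM and Cd68 at 3.83 to 6.34 CPM, neither called, and 1 was called lower. That was Csf1r, the receptor for colony-stimulating factor 1, at 0.484 and 0.379 CPM with vehicle, 2.94 and 2.29 CPM with trametinib and 0.631 and 0.598 CPM with MRTX1133 (difference -2.08 ± 0.37 SE, adjusted p = 0.0101), and it was not called without trametinib replicate 1 or either MRTX1133 library.

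Adhesion genes differed in both directions. Itga2, the collagen-binding integrin chain, was at 595 and 677 CPM with vehicle, 98.7 and 86.8 CPM with trametinib and 263 and 189.5 CPM with MRTX1133 (difference 1.28 ± 0.14 SE, adjusted p = 0.00171), and Lamb1, a laminin chain, at 152 and 128 CPM with trametinib and 270.1 and 202 CPM with MRTX1133 (difference 0.75 ± 0.11 SE, adjusted p = 0.00462). Other laminin chains ran the opposite way, with Lamb3 at 350.1 and 377 CPM with trametinib and 210.5 and 243 CPM with MRTX1133 (difference -0.69 ± 0.07 SE, adjusted p = 0.00134) and Lamb2 at 345 and 349 CPM with trametinib and 197 and 242 CPM with MRTX1133 (difference -0.67 ± 0.08 SE, adjusted p = 0.0025). These were the 4 called of 17 integrins and laminins, 2 in each direction, where 14.1% of all tested genes were called. Among 16 claudins and keratins 2 were called. Cldn18, the claudin of alveolar and gastric epithelium, was at 156 and 195 CPM with vehicle, 394 and 463 CPM with trametinib and 262 and 348 CPM with MRTX1133 (difference -0.50 ± 0.07 SE, adjusted p = 0.00385), and Cldn3 at 17.4 and 34 CPM with trametinib and 28.3 and 43.9 CPM with MRTX1133 (difference 0.53 ± 0.10 SE, adjusted p = 0.0145), the latter with overlapping groups. Of 16 YAP and TEAD targets 2 were called lower, Ptpn14 (-0.41 ± 0.08, adjusted p = 0.0132) and Amotl2 (-0.34 ± 0.08, adjusted p = 0.0288), both feedback inhibitors of YAP, while 11 of the 16 had a positive sign and the median was 0.18. Of 13 mitochondrially encoded genes 1 was called, mt-Cytb (-0.28 ± 0.07, adjusted p = 0.0278), with overlapping groups. Without MRTX1133 replicate 1, Lamb1, Lamb2, Cldn3, Cldn18, Ptpn14, Amotl2 and mt-Cytb were not called. Ptpn14 and Amotl2 were not called either without MRTX1133 replicate 2 or trametinib replicate 1, Amotl2 and mt-Cytb not without trametinib replicate 2, mt-Cytb not without MRTX1133 replicate 2, and Cldn3 not without trametinib replicate 1. Of the integrins and laminins 2 were called without MRTX1133 replicate 1 and 8 without either vehicle library. The claudins and keratins had 4 called without trametinib replicate 2 or either vehicle library, 1 without trametinib replicate 1 and none without MRTX1133 replicate 1. Of the YAP and TEAD targets none was called without MRTX1133 replicate 1 or trametinib replicate 1, 1 without MRTX1133 replicate 2 and 5 without trametinib replicate 2. It was 8 without vehicle replicate 1 and 10 without vehicle replicate 2, of which 6 and 7 were higher. Of the mitochondrially encoded genes none was called without either MRTX1133 library, 4 without trametinib replicate 1 and 5 without either vehicle library.

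The largest upward difference among called genes with a mean of at least 10 CPM in the higher inhibitor group and no overlap of these groups belonged to Mcpt8, a serine protease known from basophils, at 61.6 and 31.1 CPM with vehicle, 0.356 and 0.233 CPM with trametinib and 17.4 and 5.53 CPM with MRTX1133 (difference 5.21 ± 0.31 SE, adjusted p = 0.000481, 37-fold). It rests on 8 and 5 reads with trametinib. Gzme, a granzyme with near-identical neighbours in the genome, was at 142 and 157 CPM with vehicle, 12.5 and 9.98 CPM with trametinib and 61.6 and 26.6 CPM with MRTX1133 (difference 1.93 ± 0.29 SE, adjusted p = 0.00487), and Tigit, a receptor known from lymphocytes, at 30.6 and 26.4 CPM with vehicle, 3.92 and 4.71 CPM with trametinib and 20.2 and 14.8 CPM with MRTX1133 (difference 2.01 ± 0.18 SE, adjusted p = 0.0011). In all 3 the order was vehicle, MRTX1133, trametinib, and Ptprc, the general leukocyte marker, was at 1.79 and 1.08 CPM with vehicle, 0.223 and 0.186 CPM with trametinib and 1.04 and 0.249 CPM with MRTX1133, a difference of the same sign that was not called (difference 1.58 ± 0.64 SE, adjusted p = 0.144). Of the other measured leukocyte markers, Csf1r was called in the opposite direction (difference -2.08 ± 0.37 SE, adjusted p = 0.0101). Cd68 was not called (difference 0.05 ± 0.22 SE, adjusted p = 0.902). The part of leukocyte RNA in the differences of Mcpt8, Gzme and Tigit was not tested. Spp1, which encodes osteopontin, was at 232 and 107 CPM with vehicle, 44.8 and 22 CPM with trametinib and 213 and 77.7 CPM with MRTX1133 (difference 2.05 ± 0.11 SE, adjusted p = 0.000481). Igfbp4, a binder of insulin-like growth factors, was at 787 and 461 CPM with vehicle, 40.3 and 49 CPM with trametinib and 228 and 131 CPM with MRTX1133 (difference 1.93 ± 0.23 SE, adjusted p = 0.00237). Acsbg1, an acyl-CoA synthetase, and S100a7a, a small calcium-binding protein, had differences of 2.01 ± 0.22 and 1.98 ± 0.22. Together with Egr1, Fosl1 and Etv4 these genes were called with each library left out in turn.

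The 10 largest downward differences under the same limits belonged to genes whose mean was lowest in vehicle. Agt, which encodes angiotensinogen, was at 0.29 and 0.108 CPM with vehicle, 19.1 and 4.38 CPM with trametinib and 2.94 and 0.798 CPM with MRTX1133 (difference -2.61 ± 0.24 SE, adjusted p = 0.0011). Sec14l3, a lipid-binding protein of airway cells, was at 0.145 and 0.596 CPM with vehicle, 79.4 and 72.6 CPM with trametinib and 16.7 and 16.4 CPM with MRTX1133 (difference -2.20 ± 0.15 SE, adjusted p = 0.000616). Scnn1b, the beta subunit of the epithelial sodium channel, was at 0.387 and 0.217 CPM with vehicle, 49.8 and 35.4 CPM with trametinib and 13.6 and 10.0 CPM with MRTX1133 (difference -1.85 ± 0.12 SE, adjusted p = 0.000551), beside Scnn1g above. In these 3 genes MRTX1133 libraries lay above vehicle and below trametinib. Slc5a5, the sodium-iodide symporter, was at 29 and 10.2 CPM with trametinib and 5.05 and 3.34 CPM with MRTX1133 (difference -2.14 ± 0.41 SE, adjusted p = 0.0126) and lost its call in DESeq2 and without trametinib replicate 1 or MRTX1133 replicate 1. The difference of Slc5a5 ran from -2.76 to -1.25 with each library left out in turn. Slc4a5, a bicarbonate transporter, was at 54.8 and 57.7 CPM with trametinib and 10.4 and 21 CPM with MRTX1133 (difference -1.93 ± 0.25 SE, adjusted p = 0.003). Trim31, a ubiquitin ligase, Snx22, a sorting nexin, and Gng4, a G protein gamma subunit, had differences of -1.77 ± 0.19, -1.95 ± 0.18 and -1.75 ± 0.22.

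Under the same limits of level and overlap, 24 of 897 higher and 41 of 780 lower called genes had an MRTX1133 mean farther from vehicle than the trametinib mean. Of all 2050 called genes, 1735 had an MRTX1133 mean between those of vehicle and trametinib. These counts cover called genes only, which were selected by the difference between the drugs, and the shares over all tested genes were not computed. Lrp2, the endocytic receptor megalin, was at 398 and 474 CPM with vehicle, 389.7 and 271 CPM with trametinib and 592 and 596 CPM with MRTX1133, higher in both MRTX1133 libraries than in any other (difference 0.85 ± 0.15 SE, adjusted p = 0.0103). Mycn, a MYC family factor, was at 93.8 and 121 CPM with vehicle, 107 and 112 CPM with trametinib and 175 and 154 CPM with MRTX1133 (difference 0.59 ± 0.12 SE, adjusted p = 0.0146), and Cdca7l, a MYC-interacting protein, at 33.8 and 41.6 CPM with vehicle, 30.3 and 33 CPM with trametinib and 47.4 and 52.5 CPM with MRTX1133 (difference 0.66 ± 0.09 SE, adjusted p = 0.00396). Adam12, a metalloprotease, and Adgrl1, an adhesion receptor, had differences of 0.77 ± 0.17 and 0.63 ± 0.15. In the other direction Pdlim2, a PDZ and LIM domain protein, was at 96.6 and 119 CPM with vehicle, 126 and 141 CPM with trametinib and 73.2 and 93.6 CPM with MRTX1133 (difference -0.69 ± 0.08 SE, adjusted p = 0.00183), and Nr3c2, the mineralocorticoid receptor, at 25.1 and 26.4 CPM with vehicle, 32.4 and 30.4 CPM with trametinib and 17 and 21 CPM with MRTX1133 (difference -0.74 ± 0.12 SE, adjusted p = 0.00777). In both genes every MRTX1133 library lay below every other library. Cracr2a, a regulator of store-operated calcium channels, Degs2, an enzyme of sphingolipid synthesis, and Blvrb, a biliverdin reductase, had differences of -0.81 ± 0.21, -0.73 ± 0.16 and -0.57 ± 0.12. Against vehicle the differences of Lrp2 were -0.41 with trametinib and 0.44 with MRTX1133, neither of them called (adjusted p = 0.0586 and 0.0689). Those of Nr3c2 were 0.29 with trametinib and -0.45 with MRTX1133, of which only the MRTX1133 value was called (adjusted p = 0.0852 and 0.0329). Pdlim2 was called with each library left out in turn, Lrp2 was not without MRTX1133 replicate 2, Mycn, Cdca7l and Nr3c2 were not without MRTX1133 replicate 1, and Adam12, Adgrl1, Cracr2a, Degs2 and Blvrb lost their calls without MRTX1133 replicate 1 and at least 1 other library.

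Some of these genes share exonic sequence with a neighbour on the other strand, and the sources used here do not say whether reads were counted by strand. In the GENCODE M21 annotation the shared part was 57.2% of exonic bases for Fosl1, 52.6% for Jund, 31.4% for Tff1, 28.5% for Snx22, 24.9% for Tapbp, 24.4% for Spry1, 22.4% for Cdca7l, 22.1% for Dusp5 and 20.7% for Cebpb. On the same strand it was 24.3% for Pik3r3 and 18.8% for Spp1.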

How the data were processed

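Raw gene counts of the 6 libraries of 1027B were taken as the authors deposited them, in 1 of 7 deposited tables, and the other 6 were not used here. Per the labels' protocols, poly(A) RNA was made into directional libraries and sequenced in pairs. The submitters' processing notes name cutadapt 3.5, STAR 2.7.6a and featureCounts 1.6.3 without saying how each was run, and the genome build and strand setting of this table are not given in the sources used here. Of 16553 genes listed, the 14555 that passed filterByExpr were tested in R 4.3.3 with edgeR 4.0.16 (quasi-likelihood F-test, TMM scaling, Benjamini-Hochberg adjustment over all tested genes), with group and replicate number as terms, all 6 libraries in 1 fit and 2 residual degrees of freedom. The biological coefficient of variation was 0.0875. CPM used the TMM-scaled library sizes.

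Replicate numbers come from the sample titles. They were fixed as a block before this fit, and the correlations given here are a later check. Deviations of same-numbered libraries from their group means correlated at 0.243, 0.372 and 0.414 across genes for vehicle with trametinib, vehicle with MRTX1133 and trametinib with MRTX1133. Counts differed between replicates beyond sampling noise in all 3 groups. On simulated counts for this comparison (14327 genes, 200 changed 3-fold) the fit with the block called 89.5% of the changed genes, and 8.21% of its calls were unchanged genes. Without the block it called 67.5%, and 0% of its calls were unchanged genes. The 8.21% with the block lies above the limit of 0.05 set for the adjusted p. The counts were drawn from the fit with the block, replicate effect included, so they cannot decide whether the block belongs in the model. In the data no gene was called without it.

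The comparison, the gene lists and the tests were chosen with earlier results of these data known, so lists are described by counts and medians only. Genes are named by rule: Map2k1, Map2k2, Hnf4a and Nkx2-1; all members of the 3 short feedback lists; up to 2 called members in each direction of every other list, with a mean of at least 5 CPM in the higher inhibitor group; of called genes that reach 10 CPM there, do not overlap and keep their sign in both pairs, the 10 most positive and 10 most negative; and the 5 largest each way among those farther from vehicle with MRTX1133. Other list members named, among them Ptprc, Cd68, Csf1r and Scgb3a2, were picked after their values were seen. A few items are not reported here. Of the tested IDs, 14539 were in GENCODE M21. Promoters are RefSeq windows in GRCm38.p6. Alternatives were no block, other scaling (RLE, upper quartile), other filters, DESeq2 1.42.0, a 2-fold limit, the 4 inhibitor libraries alone, and each library left out in turn.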

Additional observations from a re-analysis of the deposited data

How the results depend on the processing

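With the replicate block left out, 0 genes differed between MRTX1133 and trametinib in edgeR (0 higher, 0 lower), where 1639 of the 2050 genes called with the block had an unadjusted p under 0.05. Without the block 3880 genes were called for trametinib against vehicle and 913 for MRTX1133 against vehicle. In the model of the 4 inhibitor libraries alone, which leaves 1 residual degree of freedom, 3857 were called, 1969 higher and 1888 lower. A 2-fold limit left 346 (207 and 139), and 2143 and 879 against vehicle. With each library left out in turn, a lone library being assumed to vary like the rest, the count ran from 368 to 3932, from 255 to 1974 higher and from 113 to 1958 lower. The range was 4875 to 6686 for trametinib against vehicle and 1353 (MRTX1133 replicate 2 left out) to 4221 for MRTX1133 against vehicle, with 1370 without MRTX1133 replicate 1. DESeq2 with the block called 1746, of which 1667 were among the 2050. RLE and upper-quartile scaling and both other count filters gave 2024 to 2137 calls. None of the 2050 genes changed sign in any of these alternatives, of those still tested. Among the genes named by rule, signs turned only for 4 that were not called, and only with a library left out, where Dusp1 ran from -0.18 to 0.019, Dusp9 from -0.46 to 0.28, Dusp16 from -0.22 to 0.050 and Spred3 from -0.04 to 0.26. Of 106 such genes called, 49 were called with every library left out in turn. The cause of these changes was not tested. Genes under 3 reads, 0.111 to 0.162 CPM by library, cannot be told from 0.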
